A study of Homo sapiens with 4 samples.

Results

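DICER1 and the other core genes of microRNA processing were examined in MDA-MB-231 cells with and without depletion of DBC1. They are 10 genes of the 18417 that had a probe set with 1 gene symbol on the arrays: DROSHA and DGCR8, which act in the nucleus, the exporter gene XPO5, the cytoplasmic nuclease gene DICER1 with its partners TARBP2 and PRKRA, and the Argonaute genes AGO1, AGO2, AGO3 and AGO4. The genes were chosen by symbol. DICER1 led the choice because its values were known to differ between the lines, so its difference is described here without a test. Each of the 10 genes had 1 such probe set, and all 10 passed the filter on dim genes.

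MDA-MB-231 is an established cell line from a human breast carcinoma, known for lacking hormone receptors and for a mesenchymal gene programme. Gene expression arrays were hybridised with total RNA of a line carrying a short hairpin that is non-specific (shNS, 2 arrays) or one directed at DBC1 (shDBC1, 2 arrays), whose gene symbol is now CCAR2. Both lines were grown in serum-containing medium with no treatment, and per the series design the replicates were independent and biological. The sources used here do not give the hairpin sequences, the vector or whether a line was a clone or a pool. Values are log2 intensities, on which a difference of 1 is a doubling. They depend on each probe set's own probes, so levels of different genes are not set against each other.

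MicroRNAs are short RNAs that lower the output of messenger RNAs carrying matching sites. In the nucleus DROSHA, held by the RNA-binding protein DGCR8, cuts a hairpin out of the primary transcript, and XPO5 carries it to the cytoplasm. There DICER1 removes the loop, helped by TARBP2 or PRKRA, and a strand is loaded into an Argonaute protein, which finds targets by the seed near the 5′ end. In breast cancer cells low DICER1 has been linked to spread of the tumour, and DICER1 messenger RNA is itself a reported target of let-7 and of miR-103 and miR-107.

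The mature sequences of those microRNAs are shown because their genes, and reported targets of let-7, are measured further on. The seed, bases 2 to 8, is in capitals (RefSeq, GRCh38.p14).
hsa-let-7a-5p: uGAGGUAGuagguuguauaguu
hsa-let-7d-5p: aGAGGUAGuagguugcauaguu
hsa-let-7i-5p: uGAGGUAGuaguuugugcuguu
hsa-miR-103a-3p: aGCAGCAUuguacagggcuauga
hsa-miR-107: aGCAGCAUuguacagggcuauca
The let-7 sequences share the seed GAGGUAG, and miR-103a and miR-107 share GCAGCAU. The same mature let-7a is encoded at 3 loci. The miR-107 sequence lies on the minus strand at chr10:89592756-89592778, and its gene MIR107 is hosted by PANK1, a pantothenate kinase gene.

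CCAR2, the hairpin's target, read 9.62 and 9.41 on the shNS arrays and 8.76 and 8.16 on the shDBC1 arrays, a 2.08-fold lower mean. Both shDBC1 arrays lay below both shNS arrays, so the target gene went the way its labels say. Each marker was set against the filter level of 6.58 and not against other genes. All 8 markers expected in the line, among them VIM, CD44 and AXL, were above it. Of 8 luminal and epithelial markers listed as low in this line, ESR1, PGR and KRT20 were below it, and ERBB2, GATA3, EPCAM, CDH1 and FOXA1 were above, so this list did not follow its label as a whole. Of 11 measured leukocyte, endothelial and fibroblast markers 5 were below it (PTPRC, CD3E, VWF, DCN and LUM) and 6 above (CD14, PECAM1, CDH5, COL1A1, COL1A2 and PDGFRB).

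DICER1 had the widest separation between the lines among the 10 genes. It read 10.16 and 10.01 on the shNS arrays and 10.70 and 10.61 on the shDBC1 arrays. Both shDBC1 values lay above both shNS values, with 0.45 between the nearest arrays. The mean was 10.09 ± 0.11 in shNS and 10.65 ± 0.06 in shDBC1 (SD, n = 2 each). The means differed by 0.57 (SE 0.12, 95% interval 0.26 to 0.87), or 1.48-fold. The gene was chosen for this difference, so the SE and interval describe it and do not test it. Set against the array of the same number, the shDBC1 line was higher by 0.54 for array 1 and by 0.60 for array 2. DICER1 ranked 60 from the top among 13813 tested genes ordered by this difference, which describes the choice of the gene and supports nothing further. In cultures of cells, more cells with the transcript and more transcript per cell cannot be told apart.

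**Figure D1:**
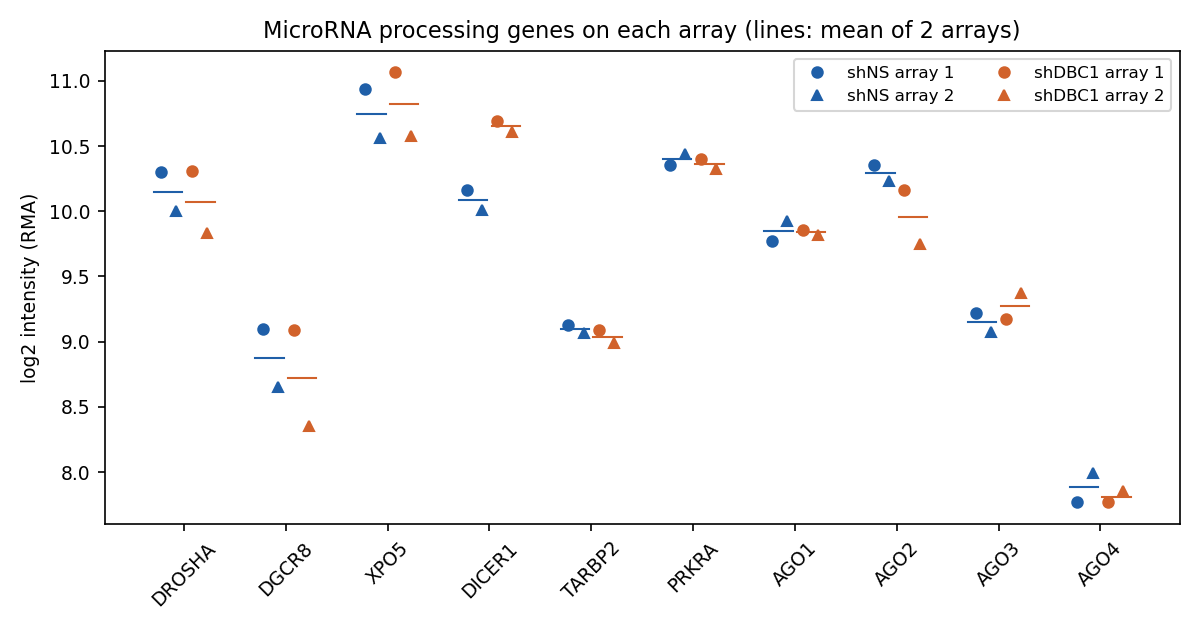
Log2 intensity of the 10 microRNA processing genes on each array (circles, arrays 1; triangles, arrays 2; blue, shNS; orange, shDBC1), with lines at the mean of 2 arrays. The shDBC1 points lie above the shNS points for DICER1 and below them for AGO2, and overlap for the other 8 genes.

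The region before 1 start of DICER1 also holds the start of DICER1-AS1, a long non-coding RNA gene read from the opposite strand. In RefSeq the DICER1-AS1 start lies 159 bases upstream of the start of DICER1 nearest to it, 1 of 5 listed for DICER1, and 258 bases are common to the 300-base windows around both starts. The 250 bases before this DICER1 start (GRCh38.p14, chr14:95157530-95157779, minus strand) are shown since both transcripts were measured, with a CCAAT motif in capitals.
DICER1 promoter: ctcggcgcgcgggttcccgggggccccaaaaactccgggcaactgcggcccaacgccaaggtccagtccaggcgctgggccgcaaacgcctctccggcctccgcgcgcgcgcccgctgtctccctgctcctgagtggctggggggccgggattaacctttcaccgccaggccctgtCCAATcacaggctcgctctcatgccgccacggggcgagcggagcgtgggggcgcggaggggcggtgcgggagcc
The letters CCAAT, searched on both strands, occurred here 1 time, from -74 to -70 relative to the start, and in 32.0% of 35116 such windows. GGGCGG, the GC box, occurred 1 time, from -16 to -11, and in 42.6% of windows. Neither CCGGAA, the core of ETS factor sites, nor the E-box CACGTG was found in these 250 bases; 14.5% and 6.34% of windows hold them. The matches do not overlap one another, and a match is only a run of letters.

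On the shNS arrays DICER1-AS1 read 6.30 and 6.24, and on the shDBC1 arrays 6.38 and 6.52. The shDBC1 arrays were again the higher, by 0.18 on average and 0.08 between the nearest arrays. All its values lay below the filter level, so it was not tested. Of the protein-coding neighbours, CLMN, which encodes the membrane protein calmin, differed by -0.01 (interval -0.79 to 0.77), and the homeobox gene GSC by 0.04 (interval -0.27 to 0.36). CLMN read 0.58 and 0.61 higher on arrays 2 than on arrays 1 in the shNS and shDBC1 lines.

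The partners of DICER1 lay within the spread between arrays. TARBP2, a double-stranded RNA-binding protein that steadies DICER1 and helps load Argonaute, read 9.12 and 9.07 on the shNS arrays and 9.09 and 8.99 on the others. The groups overlapped, with a difference of -0.06 (SE 0.11, interval -0.34 to 0.23). PRKRA, also known as PACT, an activator of the kinase PKR as well as a DICER1 partner, read 10.35 and 10.44 against 10.40 and 10.33. Its difference was -0.03 (SE 0.11, interval -0.32 to 0.25). MAP3K12, a kinase gene that overlaps TARBP2 in RefSeq, read 7.65 and 7.78 against 7.75 and 8.45, and the groups overlapped.

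The nuclear genes differed more between arrays 1 and 2 than between the lines. DROSHA, the nuclear RNase III, read 10.30 and 10.00 in shNS and 10.31 and 9.83 in shDBC1. The values of its arrays 1 were nearly equal across the lines, and its arrays 2 were lower in both. The difference between the lines was -0.08 (SE 0.21, interval -0.64 to 0.48). DGCR8 read 9.10 and 8.65 in shNS and 9.09 and 8.35 in shDBC1. It had the widest interval of the 10 genes, with a difference of -0.15 (SE 0.30, interval -0.95 to 0.64). XPO5 followed the same order of arrays, at 10.94 and 10.56 against 11.07 and 10.57. Its difference was 0.07 (SE 0.23, interval -0.53 to 0.68). POLR1C, an RNA polymerase subunit gene that overlaps XPO5 in RefSeq, read higher on both shDBC1 arrays, at 9.46 and 9.18 against 9.68 and 9.52 (0.28, interval -0.11 to 0.67). The sign turned with the array left out. Without array 1 of shNS DROSHA and DGCR8 both stood at 0.07, and without array 2 of shDBC1 at 0.16 and 0.21. XPO5 stood at -0.12 without array 2 of shNS and at -0.18 without array 1 of shDBC1.

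Within each line these 3 genes stepped down from array 1 to array 2, and further in shDBC1 than in shNS. It was -0.30 in shNS and -0.47 in shDBC1 for DROSHA, -0.44 and -0.73 for DGCR8, and -0.38 and -0.49 for XPO5. A drop of 0.25 or more in both lines was found for 3 of the 10 genes and for 5.38% of the 13813 tested (a limit chosen after the values were seen). DICER1 stepped by -0.15 and -0.09. Of the 10 genes 6 were lower on array 2 in both lines, against 34.6% of tested genes, 1 was higher in both (AGO4, 0.22 and 0.08; 33.3% of tested genes), and 3 went opposite ways. No test was made of this step, and what arrays of 1 number have in common is not in the labels.

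Some other genes moved with the array number too. The export cofactor genes, listed to go with XPO5, were lower on array 2 in both lines in 5 of 5 tested cases, with a median step of -0.19 in shNS and -0.28 in shDBC1. RANGAP1, which activates GTP hydrolysis by the transport GTPase RAN, stepped by -0.53 and -0.43, and RANBP1, which assists it, by -0.38 and -0.55. These were the largest steps of the 5. RAN and XPO1 each stepped by -0.03 in shNS, and by -0.28 and -0.15 in shDBC1. The microprocessor cofactors were lower on array 2 in both lines for 14 of 18 members, beside 34.6% of all tested genes. Of the lists described below, the loading chaperones had 7 of 9 such members and the reported let-7 targets 12 of 20. The silencing effectors had 13 of 39 and the precursor modifiers 6 of 19. The other double-stranded RNA-binding proteins had 4 of 17, and the DICER1 regulators with the PANK genes 5 of 13. Some markers stepped in the other direction, and not only those of other cells. Of the 8 markers expected in the line 0 were lower on array 2 in both lines. Their median step was 0.09 in shNS and 0.07 in shDBC1. Among luminal and epithelial markers the cadherin gene CDH1 was higher on array 2 by 1.14 and 1.25 and the adhesion gene EPCAM by 0.82 and 0.83, while FOXA1 was lower (-0.66 and -0.11), as was GATA3 (-0.05 and -0.16). Among the other cell types' markers the monocyte gene CD14 stepped by 1.14 and 0.90, PDGFRB by 0.96 and 1.11, LUM by 0.90 and 1.84 and PECAM1 by 1.58 and 0.20. Over the 6 tested markers of that list the median step was 0.57 in shNS and 0.22 in shDBC1. CD14, PDGFRB and PECAM1 were thus the larger steps in shNS, and CDH5, COL1A1 and COL1A2 lay below that median there. LUM lay below the filter level. The mean level of the 11 measured leukocyte, endothelial and fibroblast markers was 6.54 and 6.90 on arrays 1 and 2 of shNS, and 6.50 and 6.92 on those of shDBC1; PTPRC and DCN, 2 of its 5 members below the filter level, stayed between 4.29 and 4.64. The luminal and epithelial list had mean levels of 7.45 and 7.61 in shNS and 7.30 and 7.54 in shDBC1. Their part in the values of DROSHA, DGCR8 and XPO5 was not tested.

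**Figure D2:**
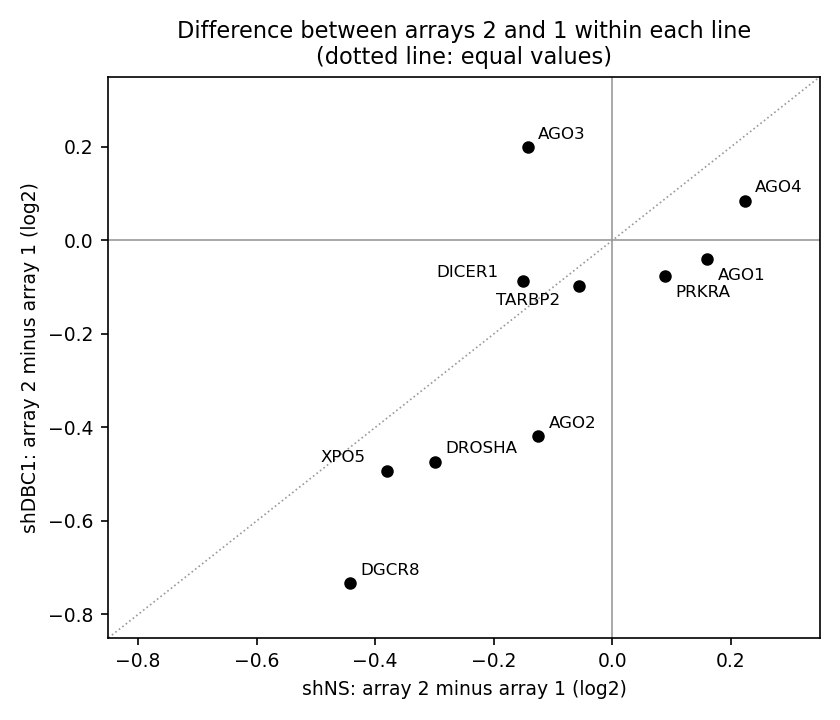
Difference between array 2 and array 1 in the shNS line (horizontal axis) and in the shDBC1 line (vertical axis), log2 scale, for the 10 genes, with a dotted line at equal values. DGCR8, XPO5 and DROSHA lie at the lower left, below -0.25 in both lines, and AGO4 alone lies above 0 in both.

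Among the Argonaute genes, AGO2 read lowest in shDBC1 relative to shNS. AGO2 encodes the Argonaute that can cut its target. It read 10.36 and 10.23 in shNS and 10.17 and 9.75 in shDBC1, so that the groups did not overlap, with 0.07 between the nearest arrays. The means of 10.29 ± 0.09 and 9.96 ± 0.30 (SD, n = 2 each) differed by -0.34 (SE 0.18, interval -0.80 to 0.13), which did not pass the limma test (adjusted p = 1 over all genes). Array 2 of shDBC1 carried much of it: without that array the difference was -0.13, and without array 1 of shDBC1 it was -0.55.

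AGO1, AGO3 and AGO4 lie next to each other in the genome, in the order AGO4, AGO1, AGO3, and their small differences had both signs. AGO1 read 9.77 and 9.93 against 9.86 and 9.82, a difference of -0.01 (interval -0.32 to 0.29). Its sign turned when the values were quantile normalised again (0.0062). AGO3 read 9.22 and 9.08 against 9.18 and 9.38, a difference of 0.13 (SE 0.13, interval -0.21 to 0.47) that was 0.03 without array 2 of shDBC1, 0.06 without array 2 of shNS and 0.23 without array 1 of shDBC1. AGO4 read 7.77 and 7.99 against 7.77 and 7.85, a difference of -0.07 (interval -0.41 to 0.27). All 3 overlapped between the groups. The PIWI genes, the other branch of the Argonaute family and known mainly from the germ line, read between 4.93 and 6.23, below the filter level, for all 4.

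Over the 10 genes, limma called 0 at an adjusted p under 0.05, as it called 0 of 13813 tested genes (0%). CCAR2, the hairpin's target, was not called either, so a gene that was not called is not shown to be unchanged. Without adjustment 475 genes (3.44%) had p under 0.05, with 0 of the 9 genes other than DICER1 among them. With the replicate number as a block limma called 113 genes (0.818%), 19 of them higher (0.138%) and 94 lower (0.681%), and 0 of the 10. A size of at least 1.5-fold was reached by 0 of the 10 and by 1.75% of tested genes. The arrays of the groups did not overlap for 2 of the 10 genes, against 24.9% of those tested: DICER1 with both shDBC1 arrays above (11.6% of tested genes) and AGO2 with both below (13.2%). The median difference of the 10 genes was -0.05, beside 0.0065 over all tested genes. The other 8 genes lay between -0.15 and 0.13. With 2 arrays against 2, an exact permutation test could not give a p below 0.333, so none is given.

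The wider pathway, 162 genes in 9 lists, had 139 tested genes and 0 calls. Their groups did not overlap for 19 genes with both shDBC1 arrays above and 20 with both below, 28.1% in all beside 24.9% of all tested genes (11.6% above and 13.2% below). Of the microprocessor cofactors and cap-linked factors, which help DROSHA or bring it to new transcripts, 18 were tested, with a median of -0.08. Of these 13 were below 0, beside 47.7% of all tested genes. Both shDBC1 arrays lay above for 2 and below for 2 (22.2% without overlap, beside 24.9% of all tested genes). NCBP2, a subunit of the nuclear cap-binding complex, read 9.67 and 9.92 against 10.03 and 10.13 (0.28, interval -0.07 to 0.64). The helicase gene DDX5, whose product works with DROSHA, differed by -0.21 (interval -0.58 to 0.16), and SMAD3, reported to bind that helicase, by -0.16 (interval -0.43 to 0.11). The export list had 0 of 5 members without overlap. With an array left out the median of the cofactor list ran from -0.16 to 0.07 and that of the export list from -0.15 to 0.11, so neither had a settled sign.

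Genes that act on precursors and on mature microRNAs were close to 0. Of the 19 tested in that list, 3 had both shDBC1 arrays above and 0 had both below (15.8%, beside 24.9% of all tested genes), and the median was 0.00049. ADARB1, an enzyme that edits adenosine in double-stranded RNA, read 8.82 and 8.89 against 9.03 and 9.04 (0.18, interval -0.09 to 0.46). The related ADAR differed by 0.02 and the zinc finger gene ZC3H7B by 0.06. The chaperones that open Argonaute for loading had 9 tested members and a median of 0.04, with 0 below and 3 above on both arrays (33.3%, beside 24.9% of all tested genes): CDC37 (0.09), HSP90AB1 (0.05) and FKBP4 (0.05). That median ran from -0.10 to 0.09 with an array left out.

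Silencing effectors are proteins that Argonaute recruits to messenger RNA. Of 39 tested members 5 had both shDBC1 arrays above and 7 had both below (30.8%, beside 24.9% of all tested genes), and the median was 0.00078. TNRC6C, a scaffold of the GW182 family, read 8.90 and 8.91 in shNS and 8.72 and 8.35 in shDBC1, a difference of -0.37 (SE 0.16, interval -0.79 to 0.05). CNOT11, a subunit of the CCR4-NOT deadenylase, read 10.75 and 10.71 against 10.58 and 10.27 (-0.30, interval -0.68 to 0.09). LSM14A, a protein of cytoplasmic P-bodies, read 10.06 and 10.22 against 10.38 and 10.50 (0.30, interval -0.02 to 0.62). None of these passed the limma test.

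**Figure D3:**
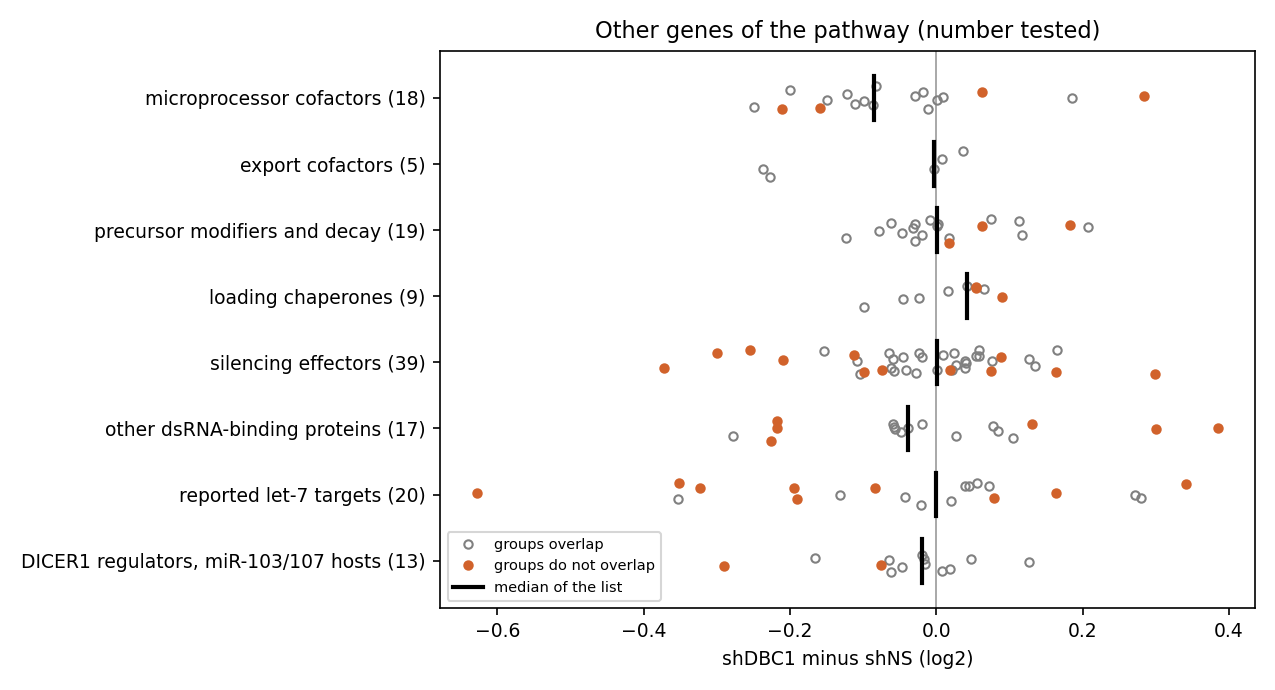
Difference shDBC1 minus shNS (log2) of each tested gene in 8 lists of the wider pathway, with the number tested in brackets. Filled points are genes whose groups do not overlap and bars are list medians, which run from -0.08 to 0.04; the PIWI list has no tested gene.

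Other double-stranded RNA-binding proteins and sensors numbered 17 tested, with 3 above and 3 below on both arrays (35.3%, beside 24.9% of all tested genes). Their median of -0.04 ran from -0.072 to 0.0091 with an array left out. CDKN2AIP, a nuclear regulator of the p53 pathway, read 9.55 and 9.41 against 10.01 and 9.72 (0.38, SE 0.15), and DUS2, a transfer RNA dihydrouridine synthase, 9.46 and 9.51 against 9.74 and 9.84 (0.30, interval 0.01 to 0.59). OAS2, an interferon-induced sensor of double-stranded RNA, read 9.10 and 9.13 against 8.87 and 8.91 (-0.23, interval -0.50 to 0.05).

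Reported let-7 targets, genes reported to be controlled through the seed GAGGUAG shown above, had 20 tested members of 26 listed, 10 below 0 and 10 above, and a median of -0.00056. Both shDBC1 arrays lay above for 3 and below for 6, 45% of the list beside 24.9% of all tested genes, and no test was made of that share. The median ran from -0.046 to 0.077 with an array left out. CDK6, a cyclin-dependent kinase of the G1 phase, read 10.56 and 10.24 in shNS and 10.10 and 9.45 in shDBC1 (-0.63, SE 0.26, interval -1.31 to 0.06). MAP4K4, a kinase of the JNK pathway, read 10.64 and 10.67 against 10.42 and 10.19 (-0.35, interval -0.69 to -0.02). MYC, a growth-promoting transcription factor, averaged 10.97 in shNS and 11.31 in shDBC1 (0.34, interval -0.05 to 0.73). None passed the limma test over all genes.

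Reported regulators of DICER1 and the PANK host genes of miR-103 and miR-107 had 13 tested members and a median of -0.02, with 0 above and 2 below on both arrays (15.4%, beside 24.9% of all tested genes). That median ran from -0.10 to -0.037 with an array left out, the lowest without array 2 of shDBC1. MITF, a melanocyte transcription factor reported to raise DICER1 in those cells, read 8.89 and 9.08 against 8.63 and 8.75 (-0.29, SE 0.13, interval -0.62 to 0.04). PANK1 differed by -0.08, PANK2 by -0.05 and PANK3 by 0.05. The kinds of regulation behind these reports were not measured here.

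The arrays also carried probe sets named for microRNA genes, which are not a measurement of the mature microRNAs. Of 173 such genes 56 lay above the filter level, with 4 above and 2 below on both shDBC1 arrays (10.7%, beside 24.9% of all tested genes) and a median of 0.03. Among 16 host genes named for their microRNA, 11 were above that level, with 2 above and 1 below on both arrays (27.3%). MIR107 read 7.28 and 7.15 in shNS and 6.96 and 7.07 in shDBC1 (-0.20, interval -0.50 to 0.11), without overlap. The miR-103 genes MIR103A1 (0.20) and MIR103A2 (0.03) lay below the filter level and were not tested, and their groups overlapped. MIR323B (0.29) and MIR375 (0.25) had both shDBC1 arrays above. The largest difference of the 56 was that of MIR222, at 7.96 and 7.48 in shNS and 9.17 and 7.82 in shDBC1 (0.78), where the groups overlapped and array 1 of shDBC1 was the high one; it was named after its values were seen. The let-7 genes MIRLET7A2, MIRLET7D and MIRLET7I, each above the filter level, differed by -0.12, -0.05 and 0.03, with overlapping groups. The let-7 host gene MIRLET7BHG, at 7.79 and 7.68 against 7.58 and 7.54, had both shDBC1 arrays below (-0.18). Limma called none of these microRNA or host genes.

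The genes with 4-array profiles nearest to that of DICER1, by root mean square distance after centring each gene on its mean, were ACY1, ZFP69B, KDR, CPM and NLK, at 0.073 to 0.084 log2 units. All 5 read higher on both shDBC1 arrays, by 0.47, 0.49, 0.42, 0.43 and 0.47. There were 12 tested genes within 0.1 of DICER1. Over 4 arrays this closeness mainly restates a like difference between the lines.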

How the data were processed

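Per the submitters' processing notes, the authors used GCOS and RMA, a method that adjusts background, quantile normalises and combines the probes of a set. The deposited values are log2 intensities per probe set, with the log2 scale inferred from their range of 2.52 to 14.1. The sources used here do not give versions or a genome build for the annotation. Of 33297 probe sets 19460 carried 1 symbol, and each of 18417 genes was taken at its brightest probe set. Genes under the 25th percentile of mean level (6.58) were left out, and 13813 were tested. The lines were compared with limma 3.58.1 in R 4.3.3 (group as the only term, two-sided, Benjamini-Hochberg over all genes tested, threshold 0.05). SE and 95% intervals come from that fit, and 2 arrays per group limit the precision. The fit was also run on simulated arrays with independent noise. In these data same-numbered arrays deviated together (correlation 0.65), which that simulation does not cover.

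The genes and lists were chosen with earlier results of these data known. Of each wider list up to 3 genes were named, those with the largest difference among genes whose groups do not overlap. The same rule picked up to 3 microRNA genes, and named beside them were CCAR2, neighbouring or overlapping genes and the 5 profiles nearest to DICER1. Other genes (RANGAP1, RANBP1, CDH1, CD14, EPCAM and other markers, PANK2, PANK3, MIR222, the miR-103 and let-7 genes) were named after their values were seen. Alternatives covered the filter, scaling, probe set, prior, replicate block and each array left out.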

Additional observations from a re-analysis of the deposited data

How the results depend on the processing

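The count of 0 called genes was the same with no filter, with a 50th percentile filter, in each scaling, for the mean of probe sets, over all probe sets, with a trended or robust prior and without any 1 array. It was 113 with a replicate block (0.818% of tested genes, 94 lower and 19 higher), 475 at an unadjusted p under 0.05, and 242 by a size of at least 1.5-fold alone. Same-numbered arrays deviated together (correlation 0.65 across genes), but the labels do not say what a number shares. With the replicate block 0 of the 10 microRNA processing genes was called, and CCAR2 was (-1.06, limma adjusted p 0.0232). The DICER1 difference stayed at 0.57 under the filters, the mean of probe sets and the block, which cannot alter it. As its groups do not overlap, leaving 1 array out could not turn its sign, so that gives no support. The difference ran from 0.49 to 0.64 with an array left out and from 0.55 to 0.58 in the scalings. AGO1 turned to 0.0062 when quantile normalised again. With an array left out the differences ran from -0.32 to 0.16 for DROSHA, -0.52 to 0.21 for DGCR8, -0.18 to 0.32 for XPO5, -0.078 to 0.010 for PRKRA, -0.091 to 0.069 for AGO1 and -0.18 to 0.039 for AGO4, so these 6 had no settled sign. The sign held for TARBP2 and AGO3. For AGO2, whose groups do not overlap, leaving 1 array out could not turn it. A fit without 1 array assumes that the lone array of its group varies like the others, and it leaves part of the step between arrays 1 and 2 in the comparison. No gene here had other probe sets to try.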
